A study of Mus musculus with 6 samples.

Results

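Runx1 binding at 10 smooth muscle contractile genes was followed in lung fibroblasts of Col1a2-CreERT2;mTmG mice. The genes were Acta2, Tagln, Cnn1, Cnn2, Myl9, Tpm1, Tpm2, Cald1, Lmod1 and Des. A peak was counted at a gene when it met the RefSeq gene body (mouse build mm10) or the 10 kb on either side. This took in 34 of 25052 sham peaks, 57 of 56316 D14 peaks and 12 of 15009 D56 peaks. The genes are 10 of 21883 protein-coding genes in the RefSeq table.

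The assay was chromatin immunoprecipitation with an antibody to Runx1, followed by sequencing (ChIP-seq). GFP+ lung fibroblasts were taken after a sham injury, and at 14 days (D14) or 56 days (D56) after bleomycin, which injures and scars the lung, was given into the trachea. All 3 groups carry the Col1a2-driven inducible Cre and the mTmG reporter, which turns recombined cells green. The cells studied are therefore those in which Col1a2 control sequences drove Cre. How many mice stand behind a library, and whether mice were pooled, the sources used here do not say. Each condition had 1 ChIP library and 1 input library, so there was no test between conditions, and nothing separates a difference between conditions from a difference between libraries.

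Myofibroblasts are fibroblasts that take on part of the contractile machinery of smooth muscle, and in the fibrotic lung they tense and remodel scar tissue. Many of these genes are driven by serum response factor (SRF), which binds the CArG box, a short element of CC, a run of A or T, and GG. Runx1 is a transcription factor that binds DNA together with the subunit Cbfb, and the core letters of its motif are TGTGGT.

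The RefSeq promoter table (GRCm38.p6) holds 10 promoter windows for 9 of the 10 genes, each from 250 bases before the annotated start to 50 after it. The starts used below are those of this table, and at Acta2, Cnn1, Myl9, Tpm1, Tpm2 and Cald1 they lie inside the gene body as RefSeq draws it. Cald1 has 2 windows and Tagln has none there. All 10 windows met a D14 peak, as did 53.4% of the 21262 promoter windows of protein-coding genes, and 6 are shown. Acta2 is shown as the best known myofibroblast gene, Cnn1 and Lmod1 because their windows met a peak at D14 alone, and Myl9, Cnn2 and Tpm1 because they hold a motif that was searched for. The 250 bases before the start are printed 5′ to 3′ on the strand of the gene, and capitals mark the motif. The regions are chr19:34255374-34255623 (minus strand) for Acta2, chr9:22099003-22099252 (plus) for Cnn1 and chr1:135324563-135324812 (plus) for Lmod1. They are chr2:156775214-156775463 (plus) for Myl9, chr10:79988350-79988599 (plus) for Cnn2 and chr9:67049214-67049463 (minus) for Tpm1.
Acta2: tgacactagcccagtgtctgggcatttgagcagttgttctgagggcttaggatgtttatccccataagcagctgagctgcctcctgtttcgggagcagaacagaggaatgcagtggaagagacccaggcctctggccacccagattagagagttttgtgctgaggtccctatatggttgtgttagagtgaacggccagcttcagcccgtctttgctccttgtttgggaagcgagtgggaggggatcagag
Cnn1: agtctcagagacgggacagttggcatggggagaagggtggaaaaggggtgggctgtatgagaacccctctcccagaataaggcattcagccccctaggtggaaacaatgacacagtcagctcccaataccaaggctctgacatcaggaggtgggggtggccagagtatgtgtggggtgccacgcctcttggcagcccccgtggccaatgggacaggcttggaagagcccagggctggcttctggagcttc
Lmod1: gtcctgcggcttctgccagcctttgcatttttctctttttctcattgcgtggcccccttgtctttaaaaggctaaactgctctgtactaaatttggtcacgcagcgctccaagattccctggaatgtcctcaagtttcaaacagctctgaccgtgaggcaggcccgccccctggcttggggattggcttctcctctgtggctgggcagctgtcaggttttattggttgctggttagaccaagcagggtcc
Myl9: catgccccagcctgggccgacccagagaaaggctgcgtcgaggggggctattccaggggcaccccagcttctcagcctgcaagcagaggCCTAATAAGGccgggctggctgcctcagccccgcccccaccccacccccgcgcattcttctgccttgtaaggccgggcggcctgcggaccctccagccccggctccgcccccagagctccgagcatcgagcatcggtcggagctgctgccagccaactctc
Cnn2: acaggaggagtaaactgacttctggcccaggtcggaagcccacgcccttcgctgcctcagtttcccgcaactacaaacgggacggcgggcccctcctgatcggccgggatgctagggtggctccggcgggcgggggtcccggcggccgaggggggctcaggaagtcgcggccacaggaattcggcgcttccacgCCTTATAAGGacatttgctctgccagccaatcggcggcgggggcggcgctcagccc
Tpm1: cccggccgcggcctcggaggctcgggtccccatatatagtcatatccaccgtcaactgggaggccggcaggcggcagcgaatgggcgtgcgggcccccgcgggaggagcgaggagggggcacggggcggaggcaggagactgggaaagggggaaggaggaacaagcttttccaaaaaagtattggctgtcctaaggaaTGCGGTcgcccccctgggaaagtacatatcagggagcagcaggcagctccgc
The capitals are a CArG box in Myl9 and Cnn2 and the letters TGCGGT, a second form of the RUNX core, in Tpm1.

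A Runx1 peak was called at all 10 genes in sham (60.3% of all protein-coding genes). The D14 library also had one at all 10 (73.3% of all genes), and the D56 library at 7 (53.7% of all genes). Peaks numbered 34, 57 and 12, with a median per gene of 2, 5 and 1 against 1, 2 and 1 over all protein-coding genes. D14 had more peaks than sham at 9 of the 10 genes (51.4% of all genes) and the same number at Tagln. D56 had fewer peaks than D14 at all 10 (57.8% of all genes) and fewer than sham at 9 (26.5% of all genes). Acta2, Tagln and Des had peaks in sham and at D14 and none at D56, a pattern seen at 6.95% of all genes. The base of these shares also holds genes without a D14 or sham peak, which cannot lose one. Genes without a D14 peak also cannot have more peaks at D14 than in sham. Of the 16047 genes with a D14 peak, 11237 had more peaks at D14 than in sham, and 12645 had fewer peaks at D56. Of the 13195 genes with a sham peak, 5791 had fewer at D56. The lists differ in length, so these counts carry the length of each list. When each list was shortened to its top 15009 peaks by p-value, the 10 genes held 12 sham, 16 D14 and 12 D56 peaks. Genes with a peak then numbered 7, 9 and 7, beside 52.5%, 56.7% and 53.7% of all genes.

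**Figure D1:**
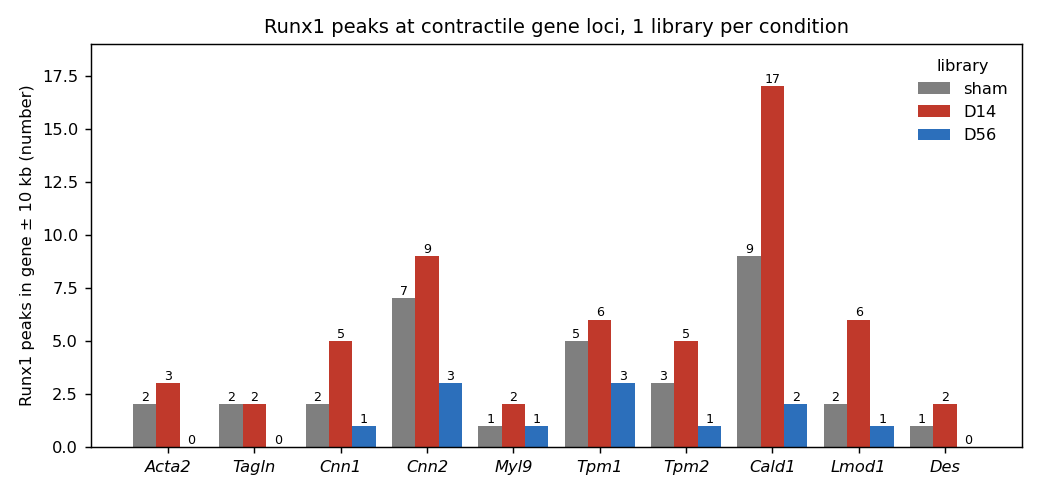
Number of Runx1 peaks in each gene and the 10 kb on either side (vertical axis) in the sham, D14 and D56 libraries, 1 library each. Cald1 has the most peaks in sham (9) and at D14 (17), and Acta2, Tagln and Des have 0 at D56.

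Acta2 encodes smooth muscle alpha-actin, the actin of myofibroblast stress fibres. The gene (chromosome 19, 34240336 to 34255585) had 2 sham, 3 D14 and 0 D56 peaks. The promoter was called at D14 and in sham. At D14 the peak spanned 34255198 to 34255708, with its summit 49 bp downstream of the start, a pileup of 79 and a fold enrichment of 11.8. In sham it spanned 34255235 to 34255545, with its summit 11 bp upstream, a pileup of 32 and a fold of 4.68. Pileup is the height of fragment signal at the summit, and the fold sets it against the local input background. Both are the authors' values for each library apart, so they rank peaks within a list and are not compared between lists. The D14 promoter peak stood at rank 9156 of 56316 by fold and the sham peak at rank 14679 of 25052. The other Acta2 peaks were weak, with folds of 3.18 and 3.65 at D14 and 3.54 in sham. The 3.65 peak lay nearer to the neighbouring gene Stambpl1.

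Tagln encodes transgelin (SM22), an actin-binding protein of smooth muscle. The locus (chromosome 9, 45929628 to 45936058) had 2 sham, 2 D14 and 0 D56 peaks. It was the single gene of the 10 whose D14 peaks all overlapped a sham peak. The summits of the stronger peak, at 45935987 at D14 and 45935988 in sham, differed by 1 bp and lay about 70 bp inside the higher-coordinate gene end. Its fold was 9.34 at D14 and 5.31 in sham. The second peak had its summit at 45937125 in both libraries, 1067 bp outside that end. Strand is not in the tables used here for Tagln, so a distance from its start is not given.

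The calponins bind actin and hold back myosin. Cnn1, the smooth muscle form (chromosome 9, 22099221 to 22109221), had 2 sham, 5 D14 and 1 D56 peaks. Its promoter window met a peak at D14 alone, at 22099038 to 22099326, with its summit 65 bp upstream of the start, a pileup of 41 and a fold of 8.59. The strongest D14 peak at Cnn1 lay further upstream, at 22095943 to 22096332 (fold 14.2, rank 6591). A sham peak overlapped it with a fold of 2.86, rank 24420 of 25052, close to the foot of that list. The single D56 peak, at 22117031 to 22117322, had a fold of 12.5, the highest of the 12 D56 peaks at these genes. It lay 7959 bp beyond the Cnn1 gene end at the neighbouring Elof1, a transcription elongation factor gene, and was called in all 3 libraries. None of the 8 peaks at Cnn1 had its summit inside the gene body.

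Cnn2, the calponin also found outside smooth muscle (chromosome 10, 79988600 to 79995400), had 7 sham, 9 D14 and 3 D56 peaks. Its locus held the highest fold of the 10 genes in sham and at D14. The region, at 79984117 to 79985368 at D14, had a fold of 9.58 in sham (rank 2321), 21.1 at D14 (rank 2399) and 9.16 at D56 (rank 4033 of 15009). Pileups there were 110, 125 and 39. Its D14 summit lay 3535 bp upstream of the Cnn2 start and nearer to Tmem259 than to Cnn2. The promoter was called in all 3 libraries, with pileups of 34 (sham), 56 (D14) and 14 (D56). The summits were at 79988602, 79988596 and 79988602, within 6 bp of each other. Of the Cnn2 peaks, 4 of 7 in sham, 6 of 9 at D14 and 2 of 3 at D56 lay nearest to Tmem259 or to Abca7, a lipid transporter gene.

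Tropomyosins lie along actin filaments and gate myosin access. Tpm1 (chromosome 9, 67022590 to 67049672) had 5 sham, 6 D14 and 3 D56 peaks, and each D56 peak was called in all 3 libraries. Its promoter peak had a fold of 6.11 in sham, 12.2 at D14 and 8.23 at D56, with summits 211, 145 and 168 bp upstream of the start. The strongest D14 peak of Tpm1 lay within the gene, at 67043672 to 67044265, with its summit 5246 bp downstream of the start. The fold there was 6.02 for sham, 14.97 for D14 and 7.88 for D56, with the 3 summits within 13 bp of each other. The third shared region lay at the outer edge of the 10 kb window, with folds of 5.40, 5.43 and 4.92.

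Tpm2 (chromosome 4, 43513726 to 43523583) had 3 sham, 5 D14 and 1 D56 peaks. The promoter was called in each library, with pileups of 36, 81 and 24 and summits within 21 bp of each other. Its fold was 3.75 in sham (rank 20586 of 25052), 15.02 at D14 (rank 5869 of 56316) and 4.32 at D56 (rank 13711 of 15009). It stood high in the D14 list and low in the other lists. A further D14 peak 1106 bp downstream of the start (fold 8.79) had no overlap in sham or at D56.

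Cald1 encodes caldesmon, which links actin, tropomyosin and myosin and is made from more than 1 start. The gene spans 177 kb (chromosome 6, 34598495 to 34775469) and had 9 sham, 17 D14 and 2 D56 peaks. Per 10 kb of gene and flank this was 0.457, 0.863 and 0.102 peaks, while Cnn2, the densest locus, had 2.61, 3.36 and 1.12. Both Cald1 promoters were called at D14 and in sham and neither at D56. At the upstream start the fold was 7.14 at D14 and 3.18 in sham. At the second start, at 34709444, it was 5.36 at D14 and 2.53 in sham, the lowest sham fold at the 10 genes. Of the 17 D14 peaks, 9 had no sham overlap, and the strongest of these lay 659 bp upstream of the second start (fold 8.40). The D56 peaks had folds of 5.15 and 4.35, and both regions were called in all 3 libraries.

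Myl9 encodes a regulatory light chain of smooth muscle and non-muscle myosin. The gene (chromosome 2, 156775408 to 156781657) had 1 sham, 2 D14 and 1 D56 peaks. Its promoter was called in every library, with a pileup of 47 (sham), 72 (D14) and 26 (D56). The fold was 6.84 in sham (rank 6599), 13.4 at D14 (rank 7333) and 8.74 at D56 (rank 4481). The 3 summits, at 156775306, 156775305 and 156775303, were within 3 bp of each other, the closest of the 12 regions called in all libraries. All 3 summits fell inside the CArG box shown in capitals above. The remaining D14 peak lay 6276 bp beyond the gene end, with a fold of 3.73.

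Lmod1 encodes leiomodin, which nucleates actin filaments in smooth muscle. The gene (chromosome 1, 135324813 to 135368065) had 2 sham, 6 D14 and 1 D56 peaks. Its promoter window met a peak at D14 alone, at 135324646 to 135324872, with its summit 63 bp upstream of the start, a pileup of 35 and a fold of 8.05. The D14 peak 864 bp inside the far gene end, at 135367077 to 135367356, had a fold of 10.7. It was the strongest of the 26 D14 peaks at these genes without a sham overlap. The region called in all 3 libraries lay just outside that end, with folds of 3.74 in sham, 5.13 at D14 and 5.38 at D56.

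Des encodes desmin, the intermediate filament protein of muscle. The gene (chromosome 1, 75360292 to 75368579) had 1 sham, 2 D14 and 0 D56 peaks. The promoter peak had a pileup of 55 and a fold of 8.02 at D14, and a pileup of 38 and a fold of 6.93 in sham. The sham peak stood at rank 6350 of 25052 and the D14 peak at rank 16898 of 56316. In lists of equal length by p-value, Des had 0 peaks at D14 and 1 in sham.

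**Figure D2:**
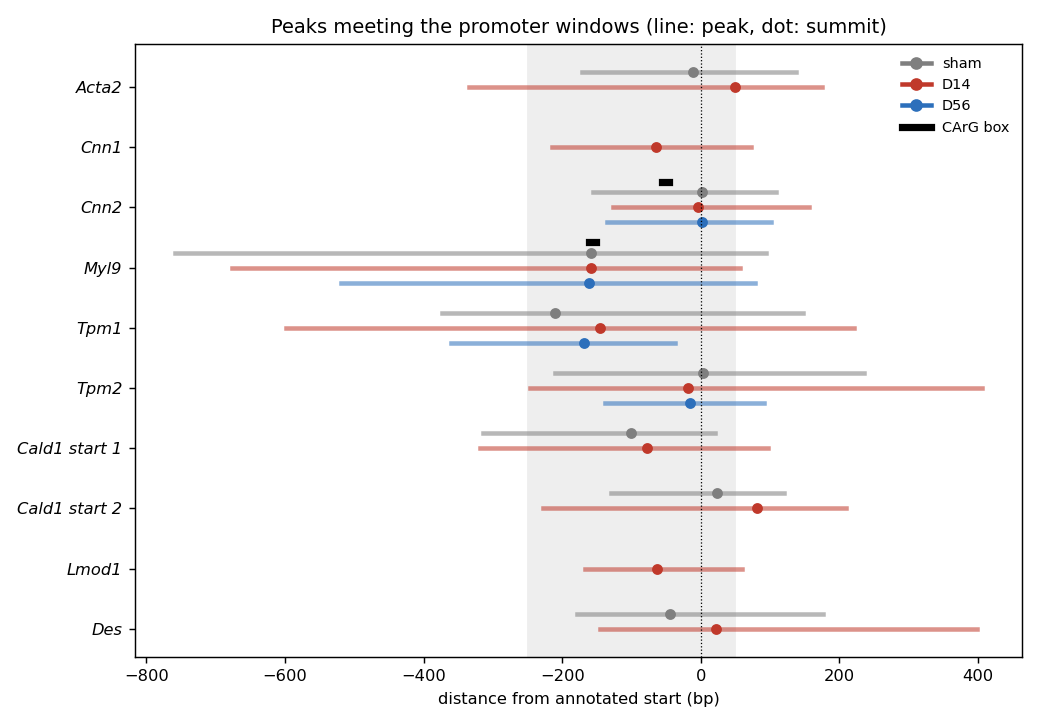
Peaks (lines) and summits (dots) that meet the promoter windows (shaded), by distance from the annotated start in bp, in the sham, D14 and D56 libraries, with CArG boxes as black bars. All 10 windows have a D14 peak, 8 a sham peak and 4 a D56 peak, and the 3 Myl9 summits lie under the CArG box.

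Peaks met 8 of the 10 promoter windows in sham, 10 at D14 and 4 at D56, beside 43.2%, 53.4% and 37.3% of all promoter windows. The 4 windows met in all libraries (36.7% of all windows) belonged to Myl9, Cnn2, Tpm1 and Tpm2. The windows met at D14 and not in sham were the 2 of Cnn1 and Lmod1 (10.4% of all windows). The median GC content of the 10 windows was 62.3%, against 56.3% over all windows. The RUNX core TGTGGT, searched on both strands, was in 0 of the 10 windows, 14.97% of all windows and 11.0% of those met by a D14 peak. The form TGCGGT, added after that search, was in 2 (Tpm1 and Myl9, where it lies after the start), 7.44% of all windows and 10.3% of those met by a D14 peak. The CArG box was in 2 windows (Myl9 and Cnn2), 1.52% of all windows and 1.24% of those met by a D14 peak. A box was counted when its middle letters were all A or T, so boxes with another letter there, on either strand, are not in these counts. It did not overlap either RUNX form. Over the 141 promoter windows that hold a CArG box and met a D14 peak, the median distance from the box to the nearest D14 summit was 73 bp, and in 12 of these windows (8.51%), which belong to 10 genes, a summit fell inside it. The distance at D14 was 0 bp for Myl9 and 43 bp for Cnn2. These matches describe letters and do not show which factor was bound.

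**Figure D3:**
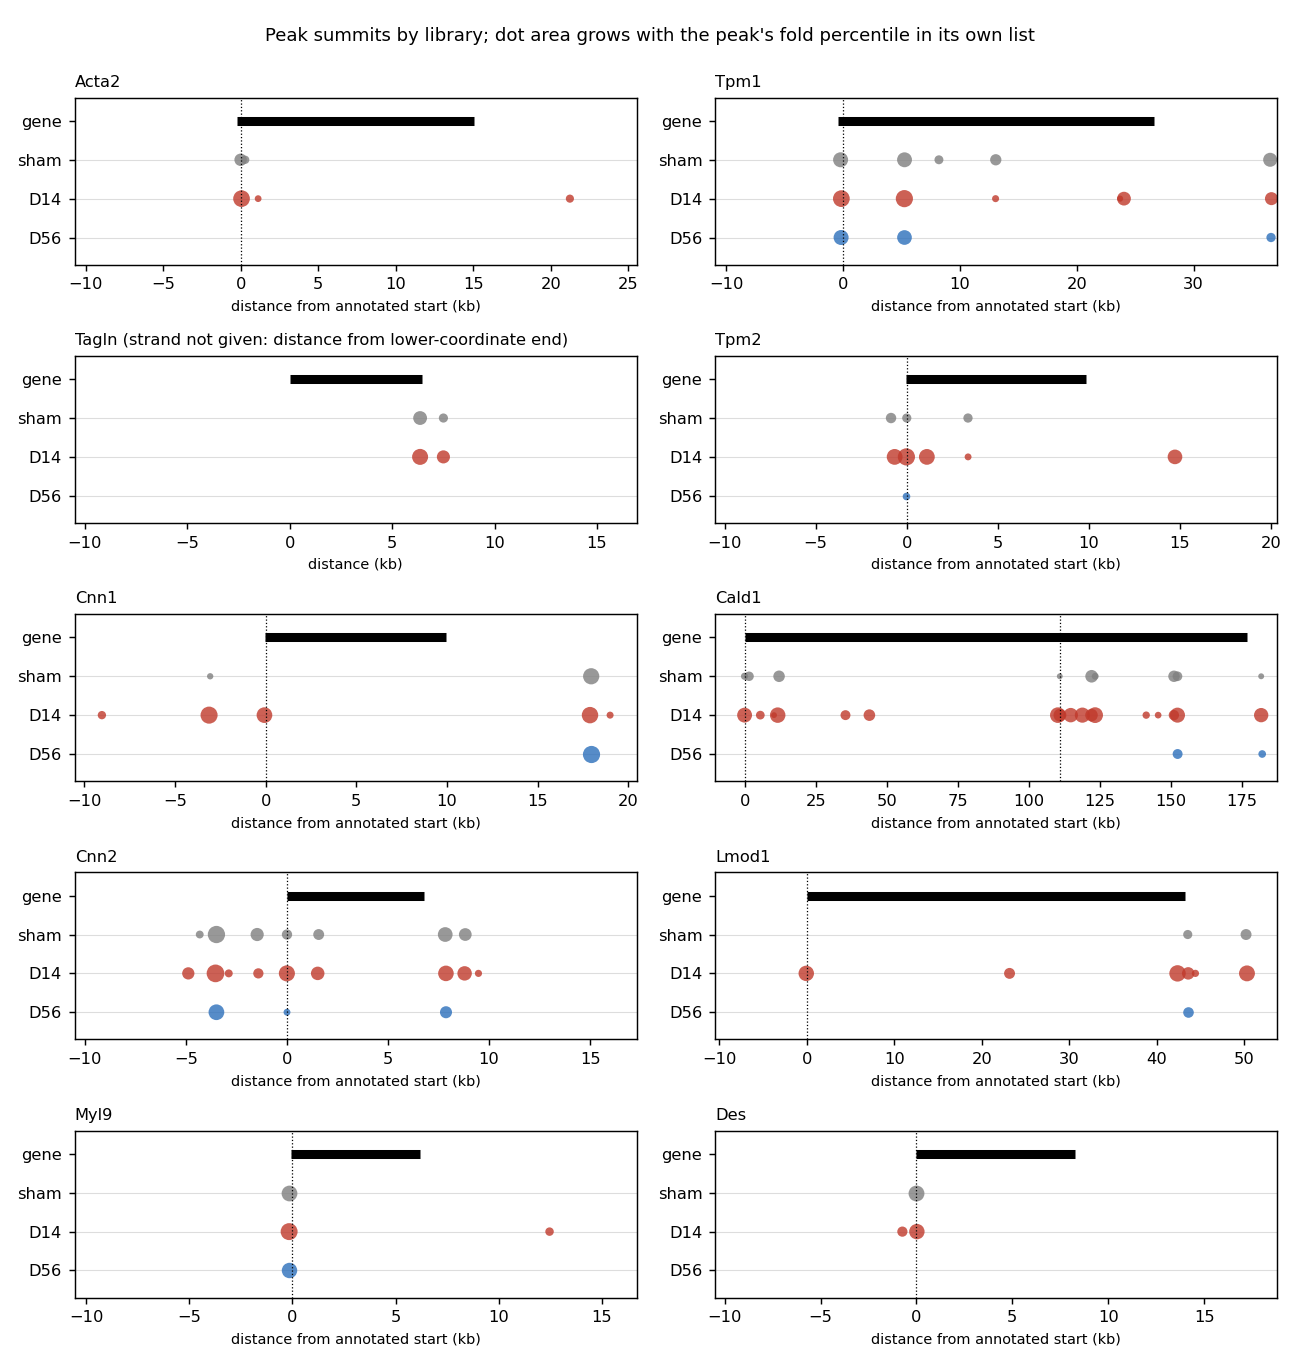
Peak summits at the 10 genes by distance from the annotated start in kb (for Tagln, from the lower-coordinate gene end), in the sham, D14 and D56 libraries. Black bars are gene bodies and dotted lines starts. Dot area grows with the fold percentile of a peak within its own list. The regions called in all 3 libraries number 12 and lie at 7 of the genes.

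Joined across libraries, the peaks fell into 59 regions, with 12 shared by all 3 libraries (20.3%, against 23.9% of all 57567 regions) and 18 by sham and D14 (30.5%, against 14.9%). A further 26 were called at D14 alone (44.1%, against 56.8%) and 3 in sham alone (5.08%, against 3.51%). No region was called at D56 without both of the others. The 12 regions called in all libraries had a median spread of 49.5 bp between summits, against 48 bp over all 13733 such regions. Of the 57 D14 peaks, 30 had their summit in the gene body and 43 had the gene itself as the nearest protein-coding gene. In sham these numbers were 18 and 26 of 34, and at D56 5 and 8 of 12. The other 26 peaks in all lay nearest to Stambpl1, Sidt2, Elof1, Ecsit, Tmem259, Abca7, Car9, Agbl3 or Shisa4.

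The D14 and sham lists were compared to ask which peaks were called after injury and not without it. D14 had 78744701 ChIP tags and 56316 peaks, beside 48816721 and 25052 in sham. The part of depth in these calls was not tested, and a region not called in sham is not shown to be unbound. Of the 57 D14 peaks, 26 had no sham overlap (45.6%, 95% Wilson interval 33.4 to 58.4), beside 58.9% of all D14 peaks. Intervals cover counting error only, and peaks of 1 gene are not independent. The median fold of those 26 was 4.21, against 8.02 for the 31 with a sham overlap, and over the whole D14 list these medians were 4.75 and 9.50. Of the 57 D14 peaks, 9 had a fold of 10 or more (21.3% of the whole D14 list), as did 1 of 12 at D56 (21.3%) and 0 of 34 in sham (7.9%). At that fold, 1 of 9 D14 peaks had no sham overlap (11.1%, against 9.92% of all such peaks). From 5 to 10 it was 9 of 27 (33.3%, against 60.6%), and under 5 it was 16 of 21 (76.2%, against 83.4%). D14 peaks that met a promoter window of any gene lacked a sham overlap in 3 of 15 cases (20%, against 19.9% of all such peaks). In lists of equal length by p-value the order against the whole list turned: 8 of 16 D14 peaks had no sham overlap (50%, 28.0 to 72.0), against 25.2% of all. Those 8 lay at Cald1 (3), Lmod1 (2), Cnn1, Cnn2 and Tpm2. Only the Lmod1 peak at 135367077 to 135367356 and the Cald1 peak at 34708621 to 34708913 also lacked a sham overlap in the full lists. The others of the 8 overlapped a sham peak that the shortened sham list left out. With a fold of 5 or more required in both lists, the share was 75% of 36 D14 peaks, against 64.3% of all. That cutoff left 10 of the 34 sham peaks, and a D14 peak over a dropped sham peak then counts as lacking one. Against the full sham list, D14 peaks at those folds lacked an overlap in the 1 of 9 and 9 of 27 cases above. In the other direction, 3 of 34 sham peaks had no D14 overlap (8.82%, against 8.31% of all sham peaks), 1 each at Acta2, Tpm1 and Cald1.

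**Figure D4:**
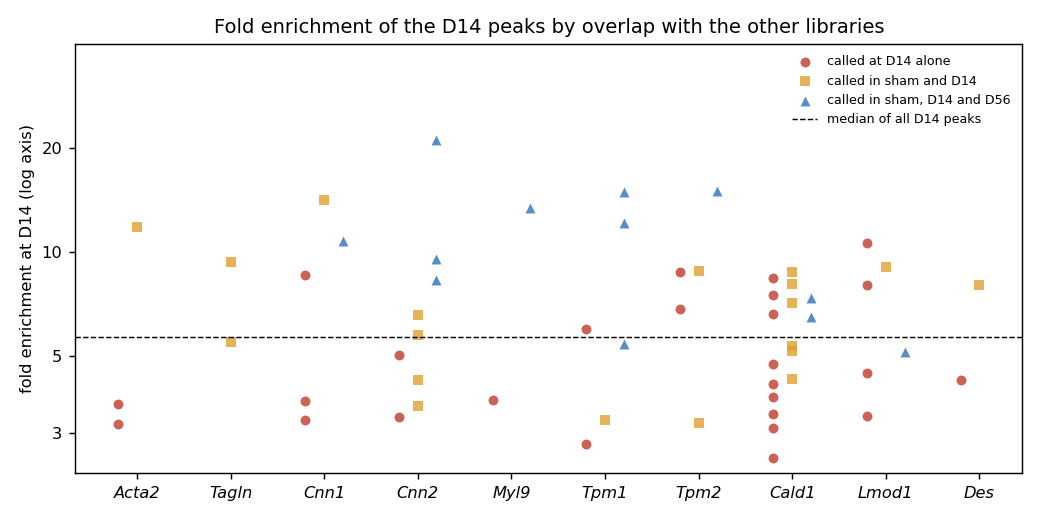
Fold enrichment at D14 (log axis) of each of the 57 D14 peaks, by gene, with colour and shape for the libraries in which an overlapping peak was called. The dashed line is the median of all D14 peaks (5.68). Of the 9 peaks at a fold of 10 or more, 8 overlap a sham peak.

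The D56 list was compared with both others to ask which peaks were still called late. All 12 D56 peaks overlapped a D14 peak and a sham peak, while 0.613% of all D56 peaks lacked a D14 overlap and 3.59% a sham overlap. Of the 26 D14 peaks that no sham peak met, 0 were also called at D56. Over the whole lists, too, such regions were few, with 477 called at D14 and D56 without sham beside 32690 called at D14 alone. Of the 57 D14 peaks, 45 had no D56 overlap (78.9%, 66.7 to 87.5), beside 74.4% of all D14 peaks. In lists of equal length this was 8 of 16 (50%), against 23.1% of all. At a D14 fold of 10 or more, 6 of 9 were found at D56 (66.7%, against 80.5% of all such peaks). The 3 strong D14 peaks not found there lay at the Acta2 promoter (11.8), upstream of Cnn1 (14.2) and in Lmod1 (10.7).

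Of the 34 sham peaks, 22 had no D56 overlap (64.7%, 47.9 to 78.5), beside 44.3% of all sham peaks. The 34 sham peaks stood mostly in the lower part of their list: the median fold was 4.21, against 5.07 over the list, and 9 of 34 stood above that list median. Under a fold of 5, 19 of 24 had no D56 overlap (79.2%, against 69.3% of all such peaks), and from 5 to 10 it was 3 of 10 (30%, against 24.8%). In lists of equal length the share was 41.7% of 12, against 20.1% of all. The sham, D14 and D56 inputs held 39609538, 49312043 and 19949187 tags, and MACS scaled the larger ChIP library to them. The part of input depth in the D56 calls was not tested, and a region not called at D56 is not shown to be unbound.

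**Figure D5:**
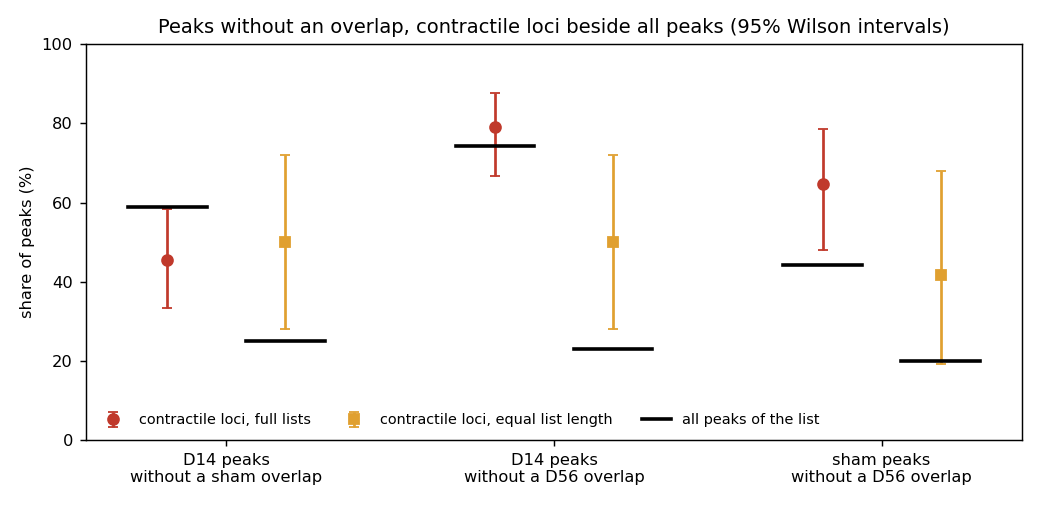
Share of peaks (%) without an overlap in the other list, with 95% Wilson intervals, at the contractile loci in the full lists (circles) and with each list shortened to 15009 peaks by p-value (squares), beside the share over all peaks (black bars). For D14 peaks against sham the loci lie below the black bar in the full lists (45.6% and 58.9%) and above it at equal list length (50% and 25.2%).

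The Tpm1 peaks just inside the 10 kb window lay 9.825 kb (sham), 9.701 kb (D14) and 9.916 kb (D56) from the gene body. Just outside it, a Tpm1 peak at D14 lay at 10.7 kb with a fold of 4.33. A region 10.8 kb (sham), 10.7 kb (D14) and 10.8 kb (D56) from Lmod1 was called in all 3 libraries, with pileups of 55, 151 and 28. Its D14 fold of 30.5 was above that of every peak counted at the 10 genes. The gene nearest to that region is not given here, so the region is not assigned to Lmod1.

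A list of 22 further contractile and smooth muscle genes had a Runx1 peak at 19 genes in sham, at 21 in D14 and at 16 in D56, beside 60.3%, 73.3% and 53.7% of all protein-coding genes. They held 76, 156 and 40 peaks, and 85 of the 156 D14 peaks had no sham overlap (54.5%, beside 58.9% of all D14 peaks). D14 had more peaks than sham at 19 of the 22 (51.4% of all genes, or 11237 of the 16047 with a D14 peak). High D14 folds were found at Ppp1r12a, the targeting subunit of myosin phosphatase (27.98), at Myh10, a non-muscle myosin heavy chain (20.3), and at Ppp1r12b, a second phosphatase subunit (19.4). Pln, phospholamban, had no peak in any library.

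Peak lists hold no expression values, so the fibroblast label could not be checked, and a peak at a marker gene does not show the cell type. Fibroblast markers had a peak at 6 of 7 genes in each library, beside 60.3%, 73.3% and 53.7% of all protein-coding genes in sham, D14 and D56, and Lum had none. These 7 genes held 18, 29 and 8 peaks in all. Of the 29 D14 peaks, 15 had no sham overlap (51.7%, beside 58.9% of all D14 peaks). Col1a2 itself, whose control sequences drive the Cre, had 3 sham, 4 D14 and 1 D56 peaks. Mural cells, the pericytes and smooth muscle cells of vessels, share contractile genes with myofibroblasts. Of 11 mural markers, 7 had a peak in sham, 10 in D14 and 5 in D56, with 14, 43 and 5 peaks in all. Those shares of all protein-coding genes stand beside these counts too. Of the 43 D14 peaks at mural markers, 72.1% had no sham overlap, beside 58.9% of all D14 peaks. Rgs5 had 0, 1 and 0 peaks, Cspg4 0, 7 and 0, Myh11, which is also a contractile gene, 1, 4 and 0, and Higd1b none. Notch3 had 5, 9 and 0, Abcc9 3, 6 and 1, Mcam 2, 4 and 1, and Kcnj8 1, 4 and 1. Ndufa4l2 had 1, 5 and 1, Cox4i2 1, 2 and 1, and Trpc6 0, 1 and 0. The part of mural cells in the counts at the contractile genes was not tested.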

How the data were processed

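Runx1 ChIP and input libraries were sequenced for sham, D14 and D56. Cells were fixed with formaldehyde before freezing, per the labels' protocols. The submitters' processing notes name build mm10 and the tools BWA, SAMtools and MACS2. Per the file headers, MACS 2.0.10.20120913 called peaks on each library singly against the matching input, at a q-value cutoff of 0.01, with local background over 1 kb and 10 kb windows.

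The deposited lists give pileup (a signal scaled to the smaller of ChIP and input, in whole numbers), −log10 p-values and q-values, and a fold enrichment (a ratio), all made by the authors per library. ChIP tags numbered 48816721 in sham, 78744701 at D14 and 49669125 at D56. Fragment lengths were 166, 132 and 150 bp, which also shape peak width.

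Off the autosomes, X and Y, 7 sham and 15 D14 peaks were set apart. Overlap means 1 bp or more. Gene bodies and promoter windows came from RefSeq tables of GRCm38.p6 and all 10 genes matched. Starts and strand came from the promoter table. The nearest gene was taken from the summit. Shares have 95% Wilson intervals (SciPy 1.17.1). Overlap, window and joining steps were tested on simulated data. The genes and lists were chosen with earlier results of these data known. All 10 genes are named. Of the other lists, genes without any peak, the 4 with the highest D14 fold and the markers quoted are named, except 1 gene that is not reported here. Of the 10 promoter windows met by a peak, 6 are printed. Alternatives were other windows, gene assignment, thresholds, list lengths, joined peaks, overlap rules and leaving out Cald1.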

Additional observations from a re-analysis of the deposited data

How the results depend on the processing

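Of 87 values recomputed under other settings, 70 stayed close to the reported ones, within 1.5 times for a count and within the Wilson interval for a share, and 17 moved. With the gene body alone the peaks numbered 21 in sham, 35 at D14 and 6 at D56. With a fold of 5 or more they numbered 10 in sham, at 6 of the genes, and 36 at D14. The shares were then 75% of D14 peaks without a sham overlap and 40% of sham peaks without a D56 overlap, against 64.3% and 31.4% of the whole lists. In lists of equal length by p-value the loci held 12 sham and 16 D14 peaks, with 50% of D14 and 41.7% of sham peaks lacking a D56 overlap, against 23.1% and 20.1% of the whole lists. By fold they held 13 and 15, with shares of 53.3% and 46.2%, against 27.3% and 25.9%. A reciprocal overlap of 50% left 89.5% of D14 peaks without a D56 overlap, against 84.0% of the whole list. Shorter lists follow from these settings by construction, and otherwise the cause was not tested. Taking only peaks nearest to the gene itself, chosen for the shares after seeing the data, moved none of the 9 results. The order against all D14 peaks turned for the sham overlap at a fold of 5 or more and at equal length. Both settings drop sham peaks, so D14 peaks that overlapped a dropped sham peak count there as lacking one. No paired analysis was possible because each condition has 1 library. Whether input depth bears on the D56 calls was not tested.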

Other observations

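Relatives of the 10 genes (17 genes) had a Runx1 peak at 12 genes in sham, at 14 in D14 and at 11 in D56 (60.3%, 73.3% and 53.7% of all protein-coding genes), with 47, 53 and 26 peaks. Of the 53 D14 peaks, 20 had no sham overlap (37.7%, beside 58.9% of all D14 peaks). The highest D14 folds were at Myl12a, a non-muscle regulatory light chain (30.2), and at the tropomyosins Tpm4 (30.2) and Tpm3 (22.8). Next was Actg2, the enteric smooth muscle actin, which is also among the 22 further contractile genes (19.2). The muscle actin Actc1, Tagln3 and Lmod3 had no peak in any library. The ubiquitous actin Actb, which was picked out after its values had been seen, had 12 sham, 2 D14 and 2 D56 peaks. Its 2 D14 peaks each overlapped a sham peak. The highest Actb folds were 7.55 in sham, 16.5 at D14 and 13.9 at D56.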
